A study of Mus musculus with 42 samples.

Results

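Interferon-stimulated genes are the genes that cells switch on when interferons bind their receptors. The set described here was given as 38 gene symbols, and its members are the probe sets that carry one of them. Of the 38 genes, 36 were measured, by 53 probe sets, among 18194 genes and 45101 probe sets in all. Isg15 and Ifi44 have no probe set listed with them alone and are not analysed here. The measurements are messenger RNA values from 42 Affymetrix arrays of mouse synovial fibroblasts, the lining cells of the joint. The donors were female mice of the BALB/c strain with arthritis induced by immunisation with cartilage proteoglycan in the adjuvant DDA, and they either lacked Tnfaip6, which encodes TSG-6, or were wild-type. The labels give no age and no further allele, transgene or Cre. The cultures had been through at most 6 passages, were kept overnight in 0.5% serum and were treated for 12 h with tumour necrosis factor alpha (TNFa, 5 ng/ml), lipopolysaccharide (LPS, 200 ng/ml), recombinant mouse TSG-6 (120 ug/ml), hyaluronan (HA, 24 ug/ml) or TSG-6 with HA at those doses, or were left untreated. There were 4 TNFa, 4 LPS, 3 TSG-6, 4 HA, 4 TSG-6 with HA and 8 untreated arrays of knockout-labelled cultures. The wild-type cultures gave 2 arrays of each of the 5 treatments and 5 of untreated cells.

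Interferons act through receptors coupled to Janus kinases. Type I interferon acts on its target genes mainly through the interferon-stimulated response element (ISRE) in their promoters, and interferon gamma mainly through the gamma-activated site (GAS). The products of the induced genes sense foreign nucleic acid, degrade or sequester viral RNA, block entry and budding of viruses, attack the vacuoles of intracellular microbes and feed back on the receptor. TNFa is known to induce part of this set in fibroblasts of the joint through IRF1 and interferon beta, and TSG-6 is a secreted protein that binds hyaluronan and is itself induced by TNFa.

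The 300 bases around the start of transcription, 250 before it and 50 after it, were available for 26 of the 36 genes in the RefSeq promoter table (assembly GRCm38.p6, which is of a C57BL/6J mouse while these cells were BALB/c). A match to the ISRE letters (GAAA, any 2 bases, GAAA), on either strand, lay in the window of 15 of the 26 genes. Over 27025 genes of that table, 3.99% had one. A match to the GAS letters TTCNNNGAA lay in the window of 7 of the 26, against 9.55% of all genes. The motifs may overlap each other, and a match is a description of the letters, not a binding site. The 4 windows below belong to genes on which the results turn: Irf1 and Gbp2, which were higher after TNFa in both genotypes, Ifit3, which showed the largest differences after TSG-6, and Trim21, whose TNFa response differed between the genotypes. Capitals mark the motif letters, which are a GAS in Irf1 and ISRE matches in the other windows. The Irf1 window is chr11:53769764-53770063 (plus strand), that of Gbp2 is chr3:142620413-142620712 (plus strand), that of Ifit3 is chr19:34583279-34583578 (plus strand) and that of Trim21 is chr7:102565433-102565732 (minus strand).
Irf1: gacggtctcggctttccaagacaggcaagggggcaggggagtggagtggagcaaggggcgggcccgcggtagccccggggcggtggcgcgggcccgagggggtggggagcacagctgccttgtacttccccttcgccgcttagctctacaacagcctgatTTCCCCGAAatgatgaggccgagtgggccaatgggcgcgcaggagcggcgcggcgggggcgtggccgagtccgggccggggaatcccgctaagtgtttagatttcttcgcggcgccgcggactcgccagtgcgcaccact
Gbp2: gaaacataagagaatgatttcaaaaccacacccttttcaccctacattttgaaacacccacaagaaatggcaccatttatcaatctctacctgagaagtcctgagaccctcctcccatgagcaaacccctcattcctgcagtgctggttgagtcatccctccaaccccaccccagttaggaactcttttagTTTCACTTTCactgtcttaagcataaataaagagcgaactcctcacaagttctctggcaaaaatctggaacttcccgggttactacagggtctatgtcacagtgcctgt
Ifit3: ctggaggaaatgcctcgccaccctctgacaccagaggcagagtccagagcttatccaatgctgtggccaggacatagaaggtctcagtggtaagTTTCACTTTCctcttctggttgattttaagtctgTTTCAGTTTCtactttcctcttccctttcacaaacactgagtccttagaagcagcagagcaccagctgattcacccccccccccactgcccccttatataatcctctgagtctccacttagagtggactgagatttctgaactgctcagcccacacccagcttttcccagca
Trim21: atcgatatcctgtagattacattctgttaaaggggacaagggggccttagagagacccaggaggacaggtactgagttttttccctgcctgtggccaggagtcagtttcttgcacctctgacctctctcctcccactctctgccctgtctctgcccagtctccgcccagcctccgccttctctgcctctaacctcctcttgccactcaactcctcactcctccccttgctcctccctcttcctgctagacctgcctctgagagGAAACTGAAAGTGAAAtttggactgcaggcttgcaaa

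The Irf1 window, the first of 2 entries for this gene, holds 1 GAS, which starts at base -90 from the start of transcription. In the Gbp2 window 1 ISRE starts at base -59, and the Ifit3 window holds 2 ISREs, at bases -156 and -122. Trim21 has a pair of overlapping matches downstream of the start, at bases 14 and 20. Several genes that moved as far as these have neither motif in their window, among them Oasl2, Ifi47, Cmpk2 and Ifitm1.

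The deposited values are log2 values centred on each probe set's median over the 42 arrays, so a value of 0 is the middle array, a negative value lies below it, and no value is an absolute level. Each difference below is a difference of group means on that log2 scale, ± SE, from 1 limma fit over all 12 groups. A gene passed the test where its p-value, adjusted by the Benjamini-Hochberg method over the 18194 genes of that comparison, was below 0.05. Array medians lay between -0.0239 and 0.0252. In bulk cultures such as these, fewer cells of a type and less RNA per cell cannot be told apart. The 18S ribosomal RNA control exceeded 1 on 10 of 27 knockout-labelled and 5 of 15 wild-type arrays. The arrays of each genotype were split into sets a and b, called culture sets here, which the labels do not name. The split was found from these values, in probe sets outside the members with a gap of at least 1 log2 unit between arrays. It was shared by 12 of 15 such probe sets in knockout-labelled and 33 of 42 in wild-type arrays. The letters do not link a set of knockout-labelled arrays to a set of wild-type arrays. The sets hold 14 and 13 knockout-labelled and 8 and 7 wild-type arrays, and every group has arrays in both. All 7 endothelial markers were far lower in the untreated knockout-labelled than in the untreated wild-type cultures, as given beside that comparison. The labels do not tie a culture to an animal, so the p-values measure only the spread between these cultures.

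The targeted gene did not bear out the genotype labels. Tnfaip6 had a lowest value of -0.41, a median of -0.10 and a highest value of 0.25 in the 8 untreated knockout-labelled cultures, against -0.55, -0.48, -0.32, -0.34 and -0.14 in the 5 untreated wild-type cultures. The ranges overlap and the knockout-labelled cultures tend to be the higher ones. The difference was 0.26 ± 0.16 (adjusted p = 0.22), and Tnfaip6 passed the test in 0 of the 20 limma comparisons, with an unadjusted p under 0.05 in 5. The position of the probe set relative to the deletion is unknown, so that it may check nothing, and the arrays are therefore called knockout-labelled throughout.

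**Figure D1:**
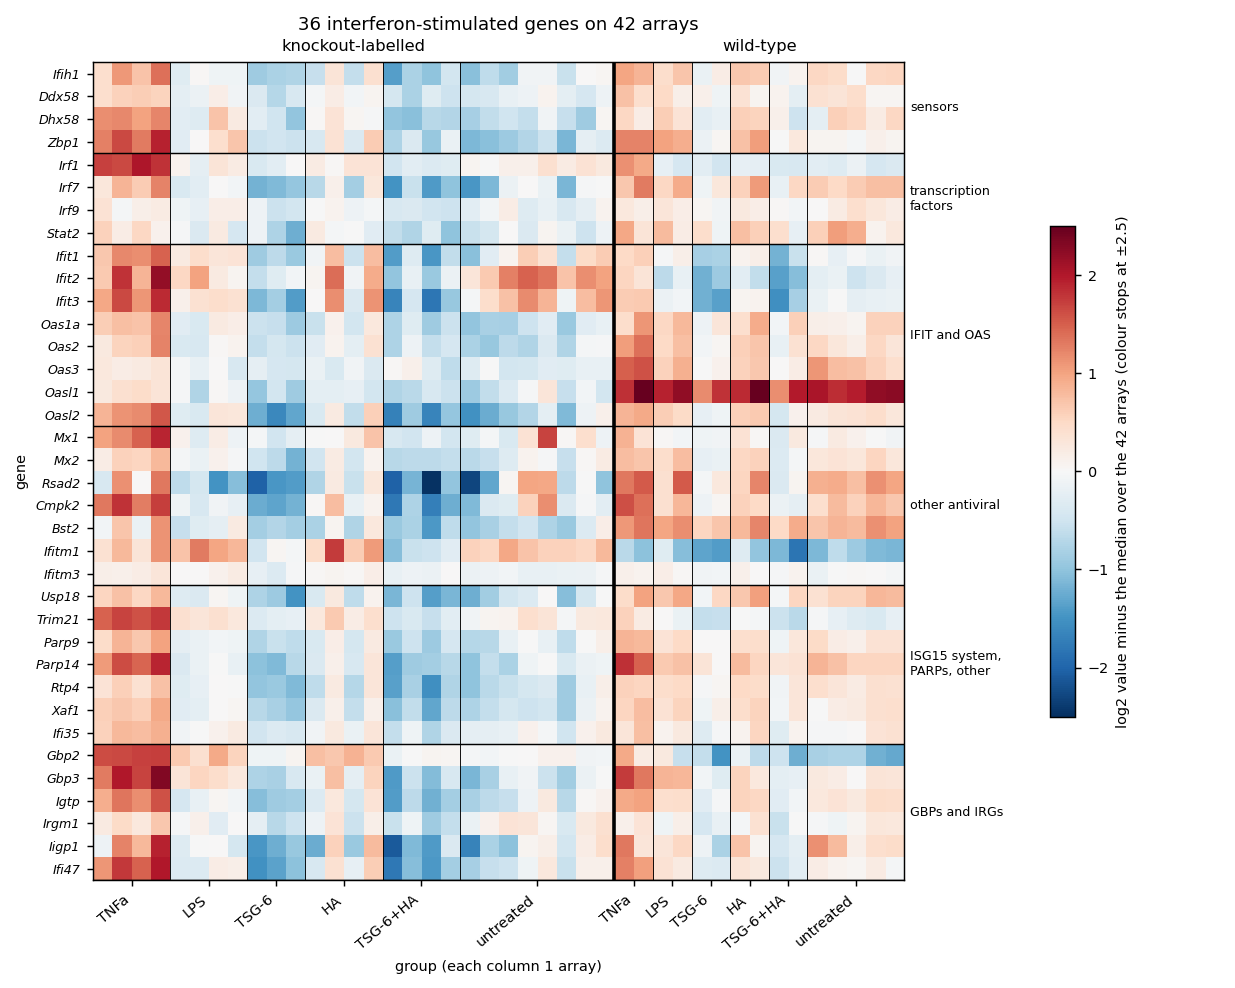
Values of the 36 measured interferon-stimulated genes (rows, grouped by role) on the 42 arrays (columns, grouped by genotype and treatment), as log2 values centred on the median of all arrays. The TNFa columns are the highest for most genes and the columns with TSG-6 the lowest in the knockout-labelled cultures, while Ifitm1, Gbp2 and Ifit2 go their own way between the genotypes.

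**Figure D2:**
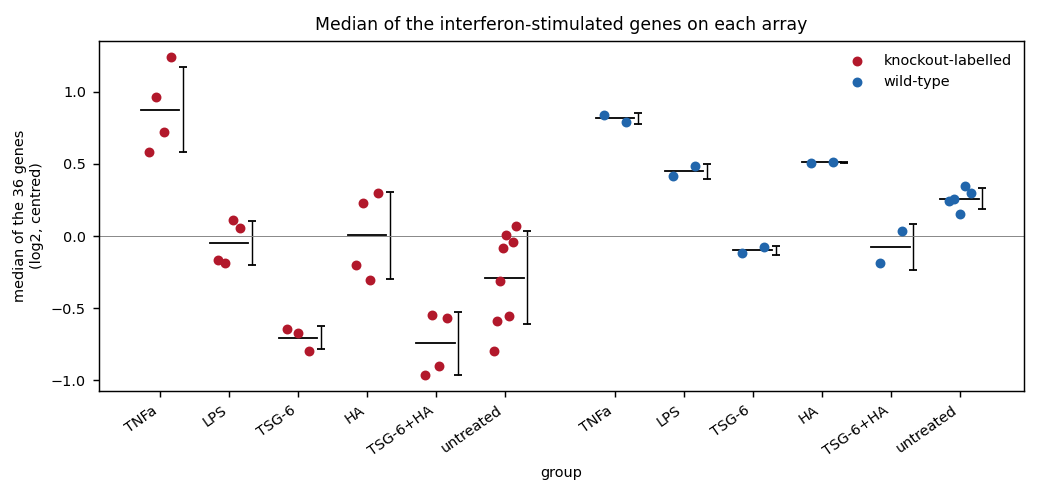
Median of the 36 genes on each array (points, centred log2 value) with the mean (line) and SD (bar) of each group. The 4 TNFa-treated knockout-labelled arrays lie between 0.580 and 1.243, above all 8 untreated ones. The 7 knockout-labelled arrays with TSG-6 or TSG-6 and HA lie between -0.963 and -0.544 and overlap the low end of the untreated range.

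TNFa raised most of the set in the knockout-labelled cultures. Of the 36 genes, 32 passed the test as higher and 0 as lower after 12 h of TNFa, where 6.71% of all genes were called higher. The median difference over the 36 genes was 1.18, beside 0.01 over all genes, and 35 of the 36 differences were above 0. In 25 genes every treated culture lay above every untreated one, which was so for 4.61% of all genes. The median of the set on each array was 0.580, 0.964, 0.720 and 1.243 in the treated cultures, against a lowest of -0.800, a median of -0.197 and a highest of 0.068 in the untreated ones.

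All 4 sensors of foreign nucleic acid rose with TNFa in the knockout-labelled cultures, with a median difference of 1.48. Zbp1, which recognises nucleic acid in the Z form and can trigger necroptosis, stood at 1.26, 1.65, 1.30 and 1.92 in the 4 TNFa-treated cultures, against a lowest of -1.15, a median of -0.82 and a highest of -0.23 in the 8 untreated ones. The groups lie well apart. Its difference was 2.29 ± 0.19, a 4.9-fold rise (adjusted p = 1.27e-11). Dhx58, the RNA helicase LGP2, stood at 1.16, 1.21, 1.00 and 1.21 in treated cultures, against a lowest of -0.88, a median of -0.59 and a highest of 0.04 in untreated ones. The treated arrays form a tight group above the others, and the difference was 1.65 ± 0.18 (3.15-fold, adjusted p = 6.89e-09). The RNA sensors Ifih1 (MDA5) and Ddx58 (RIG-I) rose by 1.30 ± 0.20 and 0.77 ± 0.11.

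The 4 transcription factors rose as well, by unequal amounts. Irf1, an early activator of the other genes, stood at 1.71, 1.65, 2.02 and 1.81 in the 4 TNFa-treated knockout-labelled cultures, against a lowest of -0.01, a median of 0.17 and a highest of 0.41 in the untreated ones. No treated array comes near an untreated one. Its difference of 1.60 ± 0.09 (3.04-fold) had the smallest adjusted p of the set in this comparison, 2.04e-15. Irf7, which amplifies interferon production, was higher by 1.26 ± 0.25. The factors Stat2 and Irf9, which act together downstream of the type I receptor, moved least, with Stat2 higher by 0.61 ± 0.19 (adjusted p = 0.0298) and Irf9 by 0.31 ± 0.10 (adjusted p = 0.0291).

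Of the IFIT proteins, which bind viral RNA, and the OAS proteins, which make the activator of RNase L, 7 of 8 genes rose. Oasl2 stood at 0.86, 1.12, 1.19 and 1.56 in the TNFa-treated knockout-labelled cultures, against a lowest of -1.504, a median of -0.85 and a highest of 0.12 in the untreated ones, a rise of 3.74-fold (adjusted p = 1.16e-07). The groups do not overlap, and the untreated cultures spread more than the treated ones. Ifit3 rose by 0.78 ± 0.25 (adjusted p = 0.0343), and its treated arrays overlap the untreated ones. Ifit2 had a difference of 0.39 ± 0.26 (adjusted p = 0.381) and did not pass the test. The untreated knockout-labelled cultures had medians above the middle array in both of these genes, 0.75 for Ifit3 and 1.08 for Ifit2. Whether this bears on their response was not tested.

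Among the other antiviral effectors 5 of 7 rose. Cmpk2, a mitochondrial nucleotide kinase, stood at 1.32, 1.81, 1.29 and 1.72 in the TNFa-treated knockout-labelled cultures, against a lowest of -1.09, a median of -0.28 and a highest of 1.16 in the untreated ones. The groups do not overlap, though 1 untreated culture comes close. The difference was 1.62 ± 0.24 (3.07-fold, adjusted p = 3.32e-06). The Mx1 and Mx2 GTPases, the tetherin gene Bst2 and Ifitm3, whose product blocks fusion of viruses, rose by between 0.32 and 1.19. Rsad2 (viperin), with 0.93 ± 0.41, and Ifitm1, with 0.00 ± 0.19, did not pass the test.

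The genes of the ISG15 system, the PARP family and their companions rose in 7 of 7 cases. Parp14, an ADP-ribosyltransferase, stood at 1.07, 1.63, 1.46 and 1.90 in TNFa-treated knockout-labelled cultures, against a lowest of -1.01, a median of -0.27 and a highest of -0.01 in untreated ones. That is a gap of about 1 log2 unit between the nearest arrays, and the difference was 1.91 ± 0.17 (3.75-fold, adjusted p = 4.69e-11). Trim21, a ubiquitin ligase that binds antibodies inside cells, stood at 1.48, 1.69, 1.60 and 1.78 in treated cultures, against a lowest of -0.09, a median of 0.17 and a highest of 0.41 in untreated ones. Both groups are narrow and far apart, with a difference of 1.47 ± 0.09 (2.78-fold, adjusted p = 1.78e-14). Usp18, which removes ISG15 and damps the type I receptor, rose by 1.195 ± 0.20, and Xaf1, Parp9, Rtp4 and Ifi35 rose by between 0.86 and 1.17.

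The guanylate-binding proteins and immunity-related GTPases, which attack the vacuoles of intracellular microbes, held the largest rise. Gbp3 stood at 1.29, 2.00, 1.68 and 2.32 in TNFa-treated knockout-labelled cultures, against a lowest of -1.15, a median of -0.37 and a highest of -0.01 in untreated ones, a 4.93-fold difference (2.30 ± 0.20, adjusted p = 7.96e-11). Every treated array is at least 1 unit above the untreated ones. Gbp2 stood at 1.63, 1.65, 1.72 and 1.74 in treated cultures, against a lowest of -0.10, a median of -0.04 and a highest of 0.12 in untreated ones (difference 1.69 ± 0.15, adjusted p = 1.09e-10). Both groups of Gbp2 are narrow. Ifi47, Igtp and Iigp1 also rose, and Irgm1, with 0.30 ± 0.15, did not pass the test. In Ifi47 the values were 1.11, 1.76, 1.47 and 2.00 in treated cultures, against a lowest of -0.84, a median of -0.31 and a highest of 0.26 in untreated ones, a 3.59-fold difference (adjusted p = 5.06e-09).

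**Figure D3:**
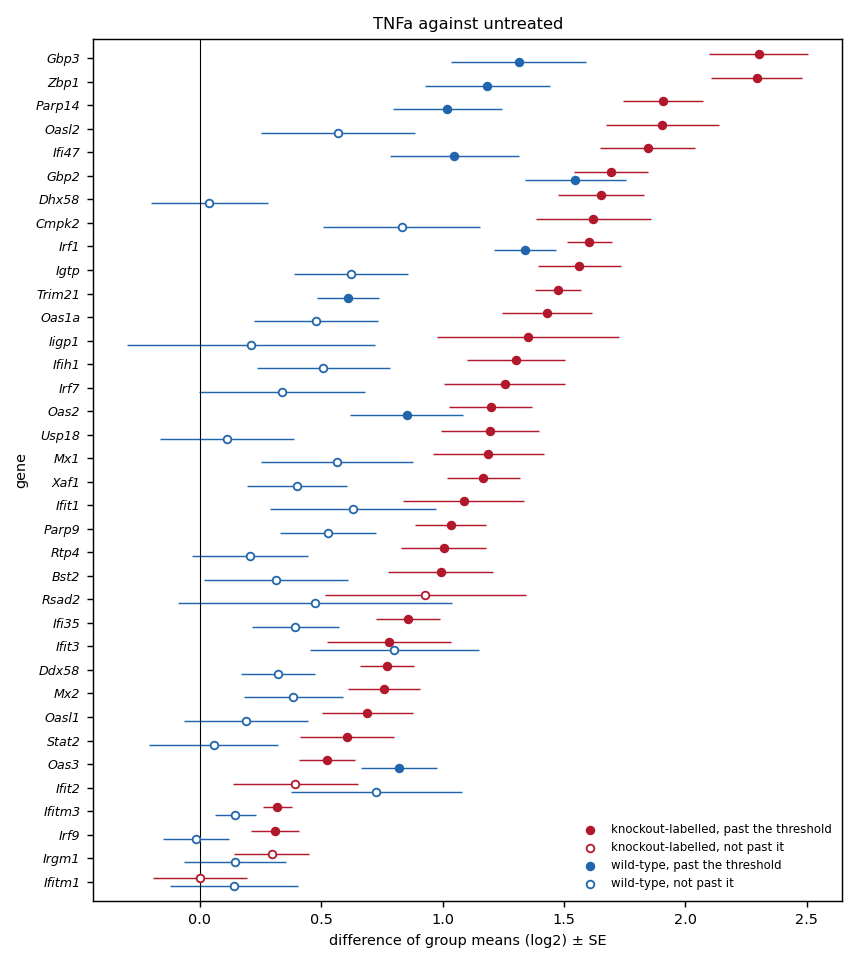
Difference of group means after TNFa (log2 ± SE) for each of the 36 genes, in knockout-labelled cultures (red) and wild-type cultures (blue), with filled points past the threshold. The red points pass it in 32 genes and the blue points in 9, and the red median of 1.18 lies to the right of the blue median of 0.49.

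Within culture set a alone 26 of the 36 genes were called (7.47% of all genes called) and within set b 23 (8.97%). Of the 15 measured genes with an ISRE match in the promoter window 13 rose, with a median difference of 0.99, and of the 11 without one 9 rose, with a median of 1.17. Some markers of other cell types moved with TNFa in the knockout-labelled cultures. Of 8 macrophage and monocyte markers 2 were higher (Cd14 by 1.06, Csf1r by 0.84), and their summed value ran between -0.516 and 1.72 in treated and between -3.58 and -0.633 in untreated cultures. In addition 1 of 9 fibroblast markers was lower (Vim, with a difference of -0.40), 1 of 4 plasmacytoid dendritic cell markers was lower (Tcf4, with -0.74), and 0 of 6 T and NK cell markers and 0 of 7 endothelial markers were called. Their part in the rise of the set was not tested.

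In the wild-type cultures TNFa raised 9 of the 36 genes and lowered 0, where 1.41% of all genes were called higher, and the median difference was 0.49. All 9 are among the 32 genes called in the knockout-labelled cultures, a share of 100.0% of the 9 and 28.1% of the 32. With 32 of the 36 called there, most of any 9 genes of the set would be among them. In 23 genes both treated cultures lay above all 5 untreated ones, as did 6.6% of all genes. Gbp2 stood at 0.95 and 0.21 in the TNFa-treated wild-type cultures, against -0.81, -0.77, -0.76, -1.21 and -1.28 in the untreated ones. The groups do not overlap, although the treated arrays differ from each other by more than the untreated ones do. Its difference was 1.55 ± 0.21 (2.92-fold, adjusted p = 4.01e-06).

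Irf1 stood at 1.13 and 0.95 in TNFa-treated wild-type cultures, against -0.27, -0.32, -0.14, -0.41 and -0.35 in untreated ones. This clear step gave a difference of 1.34 ± 0.13 (2.53-fold, adjusted p = 2.79e-09). Oas3, the longest of the OAS enzymes, stood at 1.49 and 1.59 in treated cultures, against 1.11, 0.77, 0.74, 0.57 and 0.42 in untreated ones (difference 0.82 ± 0.16, adjusted p = 0.000954). Its treated arrays lie close together just above the highest untreated one. Gbp3, Zbp1, Ifi47, Parp14, Oas2 and Trim21 rose by between 0.61 and 1.31, with adjusted p between 0.00255 and 0.0357. By role, 1 of 4 sensors, 1 of 4 transcription factors, 2 of 8 IFIT and OAS genes, 0 of 7 other antiviral effectors, 2 of 7 of the ISG15 and PARP group and 3 of 6 GTPases rose.

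The wild-type count rests on 2 treated arrays. It was 3 without TNFa replicate 1, 5 without TNFa replicate 2 (the treated wild-type array with a high 18S signal), and 5 without all arrays of high 18S signal. Within culture sets it was 3 in set a (1.49% of all genes) and 3 in set b (1.7%), with 1 treated array in each. Of the 7 endothelial markers 1, Cldn5, was lower after TNFa in wild-type cultures (-1.20 ± 0.25, adjusted p = 0.00255), and no marker of the other lists was called. The summed endothelial value ran between 23.2 and 26.2 in TNFa-treated and between 25.9 and 28.8 in untreated wild-type cultures. The part of these markers in the result was not tested.

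A direct test of the difference between the genotypes in the TNFa response called 2 genes, both with the larger response in knockout-labelled cultures, where 0.561% of all genes were called in that direction. Trim21 rose more in the knockout-labelled cultures by 0.86 ± 0.16 (adjusted p = 0.00204). In wild-type cultures Trim21 stood at 0.57 and 0.20 after TNFa, against -0.03, -0.21, -0.32, -0.38 and -0.21 untreated. Both treated wild-type arrays are above the untreated ones, by less than in the knockout-labelled cultures.

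Dhx58 rose more in the knockout-labelled cultures by 1.61 ± 0.30 (adjusted p = 0.00236). Its wild-type values were 0.52 and 0.20 after TNFa, against -0.24, 0.59, 0.51, 0.20 and 0.52 untreated, so the treated arrays lie inside the untreated range. Over the set the difference between the responses was positive in 32 of 36 genes, with a median of 0.59, and 17 genes had an unadjusted p under 0.05. For the other 34 genes the difference between the genotypes was not past the threshold. The culture sets were found in each genotype separately, so pairing them by letter does not match cultures. The count of 2 moved both ways with the setting. It was 0 without TNFa replicate 2 of the wild-type cultures, 0 without the arrays of high 18S signal and 0 within either culture set, and it was 6 with the culture set as a block and 9 after quantile normalization between arrays.

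The LPS response of the set was small in both genotypes. In knockout-labelled cultures 3 genes rose and 0 fell, where 0.973% of all genes were called higher, with a median difference of 0.20 over the set. Zbp1 stood at -0.29, 0.01, 0.42 and 0.69 in LPS-treated knockout-labelled cultures, above a median of -0.82 in untreated ones, though the lowest treated array lies below the highest untreated one at -0.23. Its difference was 0.97 ± 0.19 (adjusted p = 0.00202). Gbp3 rose by 0.87 ± 0.20 (adjusted p = 0.0143) and Gbp2 by 0.65 ± 0.15 (adjusted p = 0.0127). In wild-type cultures Gbp2 alone passed the test (0.80 ± 0.21, adjusted p = 0.0454), where 0.737% of all genes were called higher. Gbp2 stood at 0.24 and -0.58 in these LPS-treated cultures, against -0.81, -0.77, -0.76, -1.21 and -1.28 in the untreated ones, and the groups do not overlap.

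The knockout-labelled LPS count was 6 without untreated replicate 8 and 1 without LPS replicate 3. The wild-type call was lost without untreated replicate 1, 4 or 5 or LPS replicate 1. Beside these genes, Cd14 (0.81) and Col3a1 (0.79) were higher and Vim (-0.28) was lower after LPS in knockout-labelled cultures, as 1 of 8 macrophage and monocyte markers and 2 of 9 fibroblast markers. The summed macrophage and monocyte value ran between -1.47 and 0.912 in LPS-treated and between -3.58 and -0.633 in untreated knockout-labelled cultures, and the summed fibroblast value between -0.009 and 2.20 in treated and between -3.33 and 1.74 in untreated ones. In wild-type cultures 1 of 7 endothelial markers, Cldn5, was lower after LPS (-2.40 ± 0.25, adjusted p = 3.59e-08), with sums between 22.0 and 24.6 in treated and between 25.9 and 28.8 in untreated cultures. Their part in the results was not tested.

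The genotype difference in the LPS response was called for 0 of 36 genes by limma, with 0 at an unadjusted p under 0.05, where 0.214% of all genes were called in either direction.

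TNFa and LPS differed for much of the set. In knockout-labelled cultures 21 of the 36 genes were higher after TNFa than after LPS and 0 were lower, where 2.45% of all genes were called higher, and the median difference was 0.91. In 29 genes every TNFa array lay above every LPS array, against 5.45% of all genes. Irf1 stood at 1.71, 1.65, 2.02 and 1.81 after TNFa and at 0.10, -0.22, 0.31 and 0.20 after LPS in knockout-labelled cultures. The LPS arrays of Irf1 lie in the range of the untreated ones or below it, and the difference between the treatments was 1.70 ± 0.11 (adjusted p = 2.67e-13). Cmpk2, Parp14, Ifi47, Gbp3, Mx1, Igtp and Zbp1 differed by between 1.33 and 1.73, and all 4 sensors passed the test. The count was 7 without the arrays of high 18S signal, and 15 in culture set a (2.0% of all genes called) and 7 in set b (2.16%).

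In wild-type cultures Irf1 (1.34 ± 0.15, adjusted p = 1.49e-06) and Oas3 (0.81 ± 0.19, adjusted p = 0.0349) were higher after TNFa than after LPS, where 0.313% of all genes were called higher. Irf1 stood at 1.13 and 0.95 after TNFa and at -0.20 and -0.41 after LPS. The median difference of the set was 0.36, and leaving out any 1 of these 4 arrays left 1 call.

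HA raised 2 of the 36 genes in knockout-labelled cultures and 0 in wild-type ones. Gbp2 stood at 0.76, 0.67, 0.88 and 0.65 in the 4 HA-treated knockout-labelled cultures, against a lowest of -0.10, a median of -0.04 and a highest of 0.12 in the untreated ones. The groups do not overlap, and the difference was 0.75 ± 0.15 (adjusted p = 0.00828). Zbp1 rose as well, by 0.82 ± 0.19 (adjusted p = 0.0247), and 0 genes fell, where 0.429% of all genes were called higher. The median difference of the set was 0.25. The HA arrays differ among themselves: the median of the set was -0.204, 0.232, -0.303 and 0.295 on replicates 1 to 4 of the knockout-labelled cultures. The call of Zbp1 or Gbp2 was lost, leaving 1, without untreated replicate 6 or without HA replicate 2, 3 or 4. In wild-type cultures limma called 0 genes after HA, with 2 at an unadjusted p under 0.05, where 0.132% of all genes were called in either direction. Cldn5 was lower after HA in wild-type cultures too (-1.24 ± 0.25, adjusted p = 0.0162).

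TSG-6 lowered part of the set in the knockout-labelled cultures. Of the 36 genes 9 fell and 0 rose, where 2.65% of all genes were called lower, and 24 had an unadjusted p under 0.05. The median difference was -0.44, beside -0.01 over all genes, and 34 of 36 differences were below 0. On the 3 treated arrays the median of the set was -0.647, -0.672 and -0.795, against a lowest of -0.800, a median of -0.197 and a highest of 0.068 in the untreated cultures. The treated arrays thus lie at the low end of the untreated range.

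Ifit3 fell most. It stood at -1.13, -0.84 and -1.40 in the 3 TSG-6-treated knockout-labelled cultures, against a lowest of -0.11, a median of 0.75 and a highest of 1.18 in the 8 untreated ones. The groups do not overlap, and the difference was -1.74 ± 0.28, or 3.34-fold lower (adjusted p = 0.00011). Its neighbour in the family, Ifit2, stood at -0.59, -0.30 and -0.07 in treated cultures, against a lowest of 0.30, a median of 1.08 and a highest of 1.48 in untreated ones. It too separates the groups, with a difference of -1.31 ± 0.29 (2.48-fold lower, adjusted p = 0.00382).

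Of the 7 other antiviral effectors, 3 passed the test as lower after TSG-6 in knockout-labelled cultures. Cmpk2 stood at -1.23, -1.33 and -1.18 in treated cultures, against a lowest of -1.09, a median of -0.28 and a highest of 1.16 in untreated ones, so that the narrow treated group sits just below a wide untreated one (difference -1.16 ± 0.26, adjusted p = 0.0049). Ifitm1, whose product acts at membranes against viral fusion, stood at -0.48, 0.06 and -0.06 in treated cultures, against a lowest of 0.51, a median of 0.58 and a highest of 0.97 in untreated ones. The untreated cultures are all higher, and the difference was -0.82 ± 0.21 (adjusted p = 0.0178). Mx2 fell by 0.55 on the log2 scale (SE 0.17, adjusted p = 0.0467).

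Ifi47, an immunity-related GTPase, stood at -1.51, -1.34 and -1.02 in TSG-6-treated knockout-labelled cultures, against a lowest of -0.84, a median of -0.31 and a highest of 0.26 in untreated ones (difference -1.03 ± 0.21, adjusted p = 0.00249). No treated array reaches the lowest untreated one. Irgm1, of the same family, also fell, with a difference of -0.59 ± 0.17 (adjusted p = 0.0358). Trim21 and Irf1 showed smaller differences of -0.43 ± 0.10 (adjusted p = 0.00876) and -0.40 ± 0.10 (adjusted p = 0.0156). Of the 4 sensors 0 passed the test by limma, with 1 at an unadjusted p under 0.05. In 7 genes every treated array lay below every untreated one, as did 3.31% of all genes.

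The count of 9 moves with the arrays used. It was 3 without TSG-6 replicate 1, and 13 at most with any other single array left out. Without the arrays of high 18S signal it was 3, and with only the groups compared in the fit it was 4. Within culture set a 1 gene was called (3.3% of all genes) and within set b 0 (1.01%). Beside the set, the fibroblast markers Col3a1 and Col1a2 were higher by 1.17 and 0.59 and Vim was lower, with a difference of -0.32, in the TSG-6-treated knockout-labelled cultures, and the summed value of the 9 fibroblast markers ran between 0.384 and 4.02 in treated and between -3.33 and 1.74 in untreated cultures. Of the other lists, 0 of 8 macrophage, 0 of 4 plasmacytoid dendritic, 0 of 6 T and NK cell and 0 of 7 endothelial markers were called. Their part in the result was not tested.

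TSG-6 added together with HA was set against HA alone, a comparison that shares no array with that of TSG-6 alone against untreated cells. In knockout-labelled cultures 19 of the 36 genes were lower with TSG-6 and HA than with HA and 0 were higher, where 1.15% of all genes were called lower. The median difference was -0.78, and 34 genes had an unadjusted p under 0.05. In 22 genes every array with TSG-6 and HA lay below every array with HA, against 4.49% of all genes. Of the 9 genes that fell with TSG-6 alone 7 also fell here, a share of 77.8% of the 9 and 36.8% of the 19. These are Cmpk2, Ifi47, Ifit2, Ifit3, Ifitm1, Irf1 and Trim21, while Irgm1 and Mx2 fell with TSG-6 alone. With 19 of the 36 called here, a good part of any 9 genes of the set would be among the 19.

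Ifit3 again differed most. It stood at -1.66, -0.42, -1.81 and -0.95 in knockout-labelled cultures with TSG-6 and HA, against 0.01, 1.17, -0.35 and 1.12 in those with HA. The groups nearly meet without overlapping, and the difference was -1.69 ± 0.29 (3.23-fold lower, adjusted p = 0.000616). Ifitm1 stood at -1.06, -0.56, -0.51 and -0.28 with TSG-6 and HA, against 0.46, 1.74, 0.64 and 1.07 with HA. Here the groups are clearly apart, with a difference of -1.58 ± 0.22 (adjusted p = 4.17e-05).

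Trim21 had the smallest adjusted p of the set in this comparison. It stood at -0.52, -0.38, -0.57 and -0.27 with TSG-6 and HA, against 0.27, 0.65, 0.18 and 0.41 with HA, in the knockout-labelled cultures. All 4 arrays with TSG-6 are below all 4 without it, and the difference was -0.81 ± 0.11 (adjusted p = 1.58e-05). Cmpk2, Ifi47, Oasl2, Ifit1, Ifit2 and Gbp3 were lower by between 1.09 and 1.55 on the log2 scale. Of the 4 sensors, Dhx58 and Ddx58, 2 of the 4 transcription factors, Irf1 and Irf9, 5 of the 7 genes of the ISG15 and PARP group and 4 of the 6 GTPases passed the test.

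The count of 19 was 11 without HA replicate 2 or 4, 10 without TSG-6 with HA replicate 1, and 3 with only the groups compared in the fit. Within culture set a 5 genes were called (0.649% of all genes) and within set b 2 (0.506%). As with TSG-6 alone, the fibroblast markers Col3a1 and Col1a2 were higher in these cultures, by 0.97 and 0.65, and the sum of the 9 fibroblast markers ran between 1.27 and 4.07 with TSG-6 and HA and between -1.76 and 2.38 with HA. No marker of the other lists was called. Their part in the result was not tested.

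Against untreated cells, TSG-6 with HA lowered 13 of the 36 genes and raised 0 in the knockout-labelled cultures, where 6.61% of all genes were called lower, with a median difference of -0.50. This comparison shares its untreated arrays with that of TSG-6 alone. Ifit3 fell by 1.82 (SE 0.25, adjusted p = 4.96e-06), Ifit2 by 1.55, Cmpk2 by 1.29, Ifitm1 by 1.26 and Rsad2 by 1.25 (adjusted p = 0.0482) on the log2 scale. Ifi47, Ifit1, Igtp, Irgm1, Rtp4, Trim21, Parp14 and Irf1 fell by between 0.54 and 1.02. Of the 4 sensors 0 passed the test by limma, with 2 at an unadjusted p under 0.05. The count of 13 was 21 without untreated replicate 1, whose median over the set was the lowest of the untreated arrays at -0.800, 9 at the lowest with any other single array left out, and 8 with only the groups compared in the fit. Within culture set a it was 6 (5.22% of all genes called) and within set b 7 (4.35%). Of the 9 fibroblast markers 3 were higher (Col3a1, Col1a2, Col1a1) and 1 lower (Vim), and of the 8 macrophage and monocyte markers 1 was higher (Csf1r). Their part in the result was not tested.

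**Figure D4:**
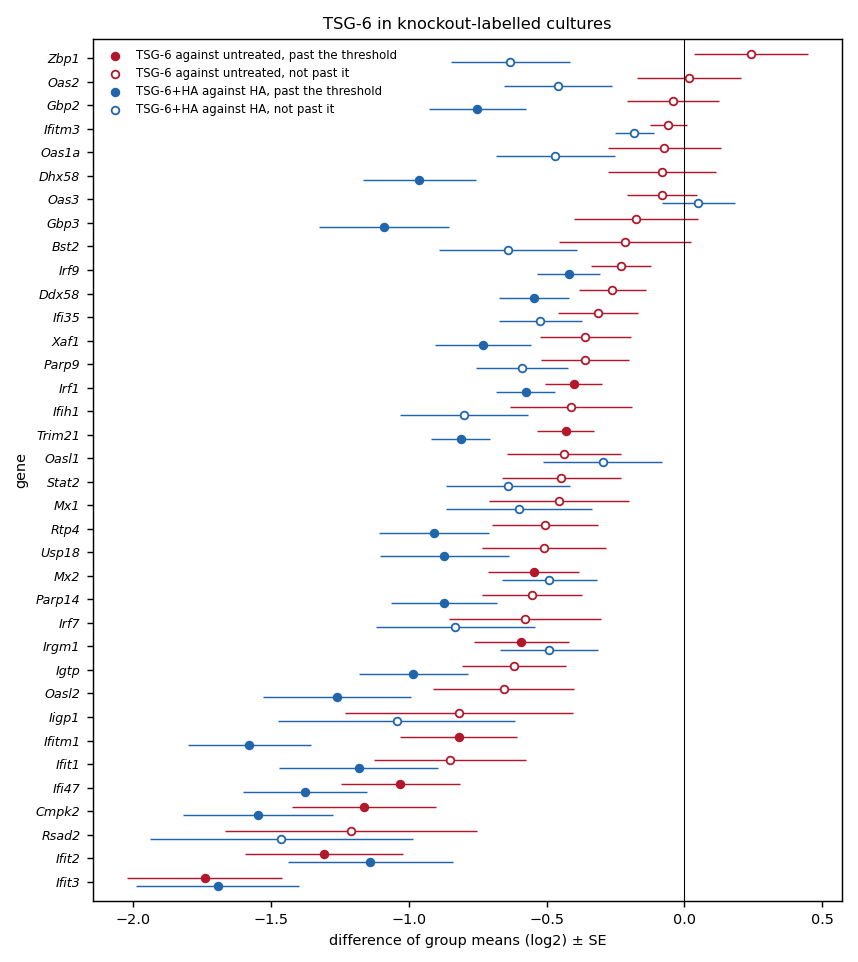
Difference of group means (log2 ± SE) for each of the 36 genes in knockout-labelled cultures, for TSG-6 against untreated cells (red) and for TSG-6 with HA against HA (blue), with filled points past the threshold. Nearly all points lie left of 0, and Ifit3, Cmpk2 and Ifi47 are among the lowest in both colours.

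In the wild-type cultures all 36 differences after TSG-6 were below 0, with a median of -0.40, but 1 gene passed the test, where 0.154% of all genes were called lower. Oas3 stood at 0.00 and 0.12 in the 2 TSG-6-treated wild-type cultures, against 1.11, 0.77, 0.74, 0.57 and 0.42 in the untreated ones. Both treated arrays are the lowest, and the difference was -0.67 ± 0.16 (adjusted p = 0.0419). Ifit3 stood at -1.20 and -1.35 in the same treated cultures, against -0.17, -0.01, -0.21, -0.20 and -0.16 in the untreated ones. It separates the groups by about 1 unit, yet did not pass the threshold. In 21 genes both treated arrays lay below all untreated ones, as did 5.01% of all genes, and 12 genes had an unadjusted p under 0.05.

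With TSG-6 and HA, Oas3 was again the only gene called in wild-type cultures against untreated ones (-0.63 ± 0.16, adjusted p = 0.0437), where 0.434% of all genes were called lower. Both Oas3 calls were lost without untreated replicate 1, 2 or 3 or without either treated array. The endothelial marker Cldn5 was lower as well in both comparisons, with differences of -1.05 ± 0.25 with TSG-6 (adjusted p = 0.0419) and -1.64 ± 0.25 with TSG-6 and HA (adjusted p = 0.000115), as the 1 call among the markers of other cells and of fibroblasts. The summed endothelial value ran between 24.8 and 27.0 with TSG-6, between 23.0 and 26.5 with TSG-6 and HA and between 25.9 and 28.8 in untreated wild-type cultures, and its part in the result was not tested. Against HA alone, all 36 genes had lower means with TSG-6 and HA, with a median difference of -0.59, and in 27 genes both arrays lay below both HA arrays, where this was so for 13.0% of all genes. Limma called 0 of the 36, with 12 at an unadjusted p under 0.05, and it called 0.0055% of all genes in either direction. The difference between the genotypes in the response to TSG-6 was called for 0 of 36 genes, with 2 at an unadjusted p under 0.05 (0.0824% of all genes called). That in the response to TSG-6 with HA was called for 0, with 3 at an unadjusted p under 0.05 (0.181%) and 1 call without TSG-6 with HA replicate 4 of the knockout-labelled cultures, and that in the response to HA for 0, with 0 at an unadjusted p under 0.05 (0.044%). With 2 treated wild-type arrays these tests do not show that the genotypes responded alike.

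Without treatment, the knockout-labelled cultures were lower than the wild-type ones in 24 of the 36 genes and higher in 6, where 16.3% of all genes were called lower and 21.3% higher. The median difference was -0.70, beside 0.03 over all genes. Oasl1, which in the mouse restrains translation of Irf7, had a lowest value of -0.92, a median of -0.40 and a highest value of 0.31 in the 8 untreated knockout-labelled cultures, against 2.04, 1.85, 1.95, 2.22 and 2.25 in the 5 untreated wild-type ones. More than 1 log2 unit separates the groups, and the difference was -2.40 ± 0.17, or 5.27-fold lower (adjusted p = 7.78e-14). Its values after every treatment stayed on the same side, with group means between -0.77 and 0.36 in knockout-labelled cultures and between 1.496 and 2.25 in wild-type cultures.

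Bst2 had a lowest value of -0.99, a median of -0.69 and a highest value of 0.16 in untreated knockout-labelled cultures, against 0.69, 0.85, 0.80, 1.15 and 1.01 in wild-type ones. The groups do not overlap (difference -1.496 ± 0.20, adjusted p = 1.22e-07). Rsad2, Usp18, Irf7, Oasl2, Parp14 and Oas3 were lower by between 1.00 and 1.35 on the log2 scale. Rsad2 varied most among the untreated knockout-labelled cultures, which ran between -2.29 and 0.99, and its difference had an adjusted p of 0.00455.

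The 6 genes that were higher in untreated knockout-labelled cultures were Ifitm1, Ifit2, Gbp2, Ifit3, Irf1 and Trim21. Ifitm1 had a lowest value of 0.51, a median of 0.58 and a highest value of 0.97 in knockout-labelled cultures, against -1.12, -0.64, -0.92, -1.10 and -1.15 in wild-type ones, a 3.13-fold difference (1.64 ± 0.18, adjusted p = 1.63e-09). All 8 knockout-labelled arrays lie more than 1 unit above the wild-type ones. Gbp2 had a lowest value of -0.10, a median of -0.04 and a highest value of 0.12 in knockout-labelled cultures, against -0.81, -0.77, -0.76, -1.21 and -1.28 in wild-type ones (difference 0.96 ± 0.14, adjusted p = 7.7e-07). Ifit2 was higher by 1.29 ± 0.24, Ifit3 by 0.77 ± 0.24, Irf1 by 0.49 ± 0.09 and Trim21 by 0.39 ± 0.09. In Gbp2 as in Ifitm1 the genotypes do not overlap.

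**Figure D5:**
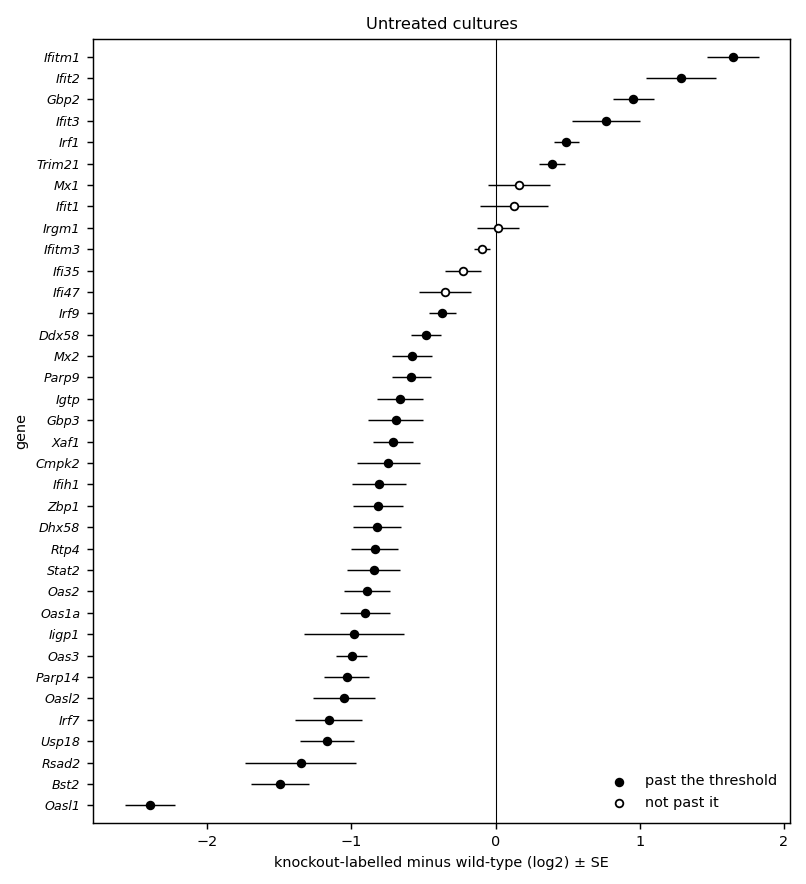
Difference between untreated knockout-labelled and wild-type cultures (log2 ± SE) for each of the 36 genes, with filled points past the threshold. Of the filled points 24 lie left of 0 and 6 right of it, between -2.40 for Oasl1 and 1.64 for Ifitm1.

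By role, all 4 sensors were lower in untreated knockout-labelled cultures, with Dhx58 at -0.82 and Zbp1 at -0.81, as were 3 of 4 transcription factors (Irf1 being higher), 5 of 8 IFIT and OAS genes (2 higher), 4 of 7 other antiviral effectors (1 higher), 5 of 7 of the ISG15 and PARP group (1 higher) and 3 of 6 GTPases (1 higher). Ifi47, Ifi35, Ifitm3, Mx1, Ifit1 and Irgm1 did not pass the test. In 15 genes all knockout-labelled arrays lay below all wild-type ones and in 4 above, beside 9.52% and 13.7% of all genes. Within culture sets, 20 genes were lower and 4 higher in set a (29.1% of all genes called in either direction) and 10 lower and 5 higher in set b (33.0%), against 37.6% over all arrays. The sets were found in each genotype separately and share only their letter, so these counts do not compare matched cultures.

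Some markers of other cells differed between the untreated genotypes too, where 16.3% of all genes were called lower and 21.3% higher. All 7 endothelial markers were lower in the knockout-labelled cultures, with a median difference of -5.42, and their summed value ran between -11.6 and 1.83 in the knockout-labelled cultures and between 25.9 and 28.8 in the wild-type ones. Of the 9 fibroblast markers 4 were higher (Lum by 3.15 and Pdgfra by 1.64 among them) and 4 lower (Thy1 with -1.91 and Col1a1 with -1.49 among them). Their summed value ran between -3.33 and 1.74 in knockout-labelled and between -3.82 and 0.279 in wild-type cultures. Of 8 macrophage and monocyte markers 2 were lower (Lyz2, Cd14), with sums between -3.58 and -0.633 in knockout-labelled and between 0.684 and 0.99 in wild-type cultures. The plasmacytoid dendritic cell list had 1 of 4 lower (Irf8), and 0 of 6 T and NK cell markers were called. Centred values do not show whether any marker is absent. Genotype, culture and cell makeup cannot be told apart in this comparison.

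Of 9 interferon genes listed 5 were measured, and these gave no call. Ifnl2, Ifnl3, Ifnk and Ifne have no probe set listed with them alone. Ifna1, Ifna2, Ifna4, Ifnb1 and Ifng each passed the test in 0 of the 20 limma comparisons, with an unadjusted p under 0.05 in 2 for Ifna1 and in 0 for the others. Ifnb1, the interferon beta gene, stood at 0.10, -0.28, 0.11 and 0.32 in TNFa-treated knockout-labelled cultures, against a lowest of -0.15, a median of -0.05 and a highest of 0.84 in untreated ones. The groups overlap. Its difference was -0.03 ± 0.14 (95% interval -0.313 to 0.255) there and -0.07 ± 0.19 (-0.46 to 0.315) in wild-type cultures. A change in array signal of more than about 0.3 to 0.5 log2 units at 12 h would fall outside these intervals. Centred values do not show whether the Ifnb1 probe set reads above background, so the intervals do not bound a change in its RNA. After LPS, TSG-6, HA and TSG-6 with HA the Ifnb1 differences were 0.01, -0.01, 0.04 and 0.08 in knockout-labelled cultures and 0.02, -0.05, -0.11 and 0.11 in wild-type ones.

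The receptors and their signalling moved in part with the set. After TNFa, 6.71% of all genes were called higher in knockout-labelled and 1.41% in wild-type cultures. In the knockout-labelled cultures 3 of 6 receptor genes rose: Ifnar2 by 0.63 ± 0.12, Ifngr1 by 0.46 ± 0.10 and Ifngr2 by 0.74 ± 0.18. In wild-type cultures Ifngr1 (0.78) and Ifnar2 (0.62) rose. Jak2, the kinase of the interferon gamma receptor, rose by 2.22 ± 0.18 in knockout-labelled and 1.21 ± 0.24 in wild-type cultures, and Socs1, which inhibits the kinases, by 0.95 ± 0.14 in knockout-labelled cultures, where 2 of 10 signalling genes rose. Of 10 genes of interferon induction 5 rose with TNFa in knockout-labelled cultures, with Ikbke, a kinase of IRF3 and IRF7, at 0.92 ± 0.10 and Tlr3 at 1.40 ± 0.20, followed by Myd88 (0.29) and Irf5 (0.66), and Ikbke (1.28) and Irf5 (0.88) rose in wild-type cultures. TSG-6 went with higher Jak2 (0.94 ± 0.20) and Socs3 (0.92 ± 0.22) in the knockout-labelled cultures. Both genes were also higher after LPS in knockout-labelled cultures, Jak2 by 0.96 ± 0.18 and Socs3 by 1.07 ± 0.20. TSG-6 with HA went with higher Socs3 (1.25), Jak2 (1.02) and Socs1 (0.43) and lower Irf2 (-0.61).

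A further list of 24 interferon-stimulated genes outside the 36 was measured. Like the other lists, it was chosen with earlier results of these data known. With TNFa, 17 of 24 rose in knockout-labelled cultures and 0 fell, among them Psmb8, a subunit of the immunoproteasome (2.37 ± 0.17), Nmi (1.37 ± 0.10), Parp12 (1.11 ± 0.09) and the chemokine Cxcl10 (3.60 ± 0.34). In wild-type cultures 5 of 24 rose, with Cxcl10 at 3.51 ± 0.46 and Psmb8 at 1.45 ± 0.23. TSG-6 lowered 4 of 24 in knockout-labelled cultures, namely Samhd1, which depletes nucleotides (-0.78 ± 0.11), Irgm2 (-0.65 ± 0.14), Parp12 (-0.42) and Tap1 (-0.36). TSG-6 with HA was lower than HA in 8 of 24, with Irgm2 at -0.94, Psmb8 at -1.19, Samhd1 at -0.65 and Parp12 at -0.57. In untreated cells 14 of 24 were lower and 3 higher in the knockout-labelled than in the wild-type cultures, with Nmi at -1.09, Uba7 at -1.51, Ifi27l2a at -2.57 and Parp12 at -0.75. Of all genes, 6.71% were called higher with TNFa in knockout-labelled and 1.41% in wild-type cultures. TSG-6 in knockout-labelled cultures had 2.65% called lower, and TSG-6 with HA against HA 1.15%. Between the untreated genotypes 16.3% of all genes were called lower and 21.3% higher.

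The 36 genes did not all follow one pattern. Across the 42 arrays, which include both genotypes and all treatments, the Pearson correlation of a gene with the mean of the other 35 was 0.989 for Igtp, 0.968 for Ifi47, 0.964 for Oasl2, 0.962 for Parp9 and 0.952 for Ifih1. At the other end stood Ifitm1 at 0.043, Gbp2 at 0.317, Ifit2 at 0.409, Oasl1 at 0.529 and Oas3 at 0.589. The first 3 of these were higher in untreated knockout-labelled cultures, against the direction of most of the set, and Oasl1 and Oas3 were much lower. These correlations describe arrays that share groups and cultures. Gbp2 (7 as higher, 1 as lower), Irf1 (5 and 3) and Trim21 (5 and 3) were called in 8 of the 20 comparisons each, more often than any other member. Outside the set, the 10 genes most like its mean over the 42 arrays were Phf11d (r = 0.976), Ifi44l (0.961), Irgm2 (0.956), Dtx3l (0.923), Parp12 (0.916), Mndal (0.914), Trim30a (0.912), Rnf213 (0.911), Slfn2 (0.903) and Gm4951 (0.902).

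Of the set, 13 genes have more than 1 probe set. Their probe sets agreed in sign for TNFa in knockout-labelled cultures, for TSG-6 with HA against HA in knockout-labelled cultures and for the untreated genotypes in all 13. For TSG-6 in knockout-labelled cultures they disagreed in 2 genes, Ddx58 and Xaf1, neither of which passed the test there. The sizes could differ widely. The probe set used was the one with the largest SD over these same arrays, so the differences given may lean towards the larger ones. Cmpk2 with TSG-6 had a difference of -1.16 on the probe set used and -0.22 on the other. Dhx58 had 1.65 (used), 1.06 and 0.74 with TNFa in knockout-labelled cultures. Between the untreated genotypes it had -0.82 (used), -0.51 and -0.01. Other genes had close values, such as Zbp1 with TNFa in knockout-labelled cultures (2.29 used, 2.17).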

How the data were processed

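The study measured messenger RNA of 42 mouse synovial fibroblast cultures on Affymetrix arrays. The deposited table holds log2 values that the authors made with RMA, per the submitters' processing notes, for 45101 probe sets. The row medians lie within 1e-05 of 0, so each probe set was centred on its median over all arrays before deposit, and levels cannot be compared between genes. Base 2 was inferred: the largest range of a probe set, 9.81, would be 14.15 doublings as a natural logarithm. Array totals and probe brightness are not in these values, and precision is limited by the number of arrays.

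Groups were taken from the labels. Probe sets listed with 1 gene were kept (34958, of which 34754 matched a current symbol by gene number), and 932 with several genes and 9211 with none were left out. The probe set with the largest SD stood for a gene, avoiding those correlated above 0.7 with the 18S control where the gene had another (387 of all probe sets and 0 of the members' were so correlated). A limma fit (3.58.1, R 4.3.3) of 12 group means with 30 residual degrees of freedom and empirical Bayes gave 20 comparisons, each adjusted by Benjamini-Hochberg over 18194 genes at 0.05. The fit was tested on simulated data. No columns of per-sample values were unused (0), and 0 pairs of arrays of a group held equal values.

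The members and all lists were chosen with earlier results of these data known. Genes were named by rule: in each comparison the 8 members with the largest difference past the threshold, any past it in the opposite direction and at least 1 of each role, the 4 smallest adjusted p of each other pathway list, Ifnb1, and the 10 genes most correlated with the members' mean. Some others are named beside them to account for every member. Same-numbered replicates were not treated as pairs, because their deviations did not correlate above 0.1 in every pair. Alternatives were 2 further normalizations, other probe set rules, a filter on flat genes, array weights, robust empirical Bayes, smaller fits, blocks, and leaving out arrays.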

Additional observations from a re-analysis of the deposited data

Results flagged for a closer look

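Of 120 tests for a single array standing apart from its group, 2 were positive. They covered the median of the set and 19 of its genes in each of the 6 groups of 4 to 10 arrays, and chance alone gives about 1 in 20. Ifit3 in untreated wild-type cultures had a highest array at -0.008, with the next at -0.159. Oasl1 in HA-treated knockout-labelled cultures had a lowest array at -0.467, with the next at -0.248.

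For 2 genes the TNFa response differed between the genotypes by a direct test. Trim21 rose by 0.862 more (log2) and Dhx58 by 1.613 more in knockout-labelled than in wild-type cultures. Both calls were lost without TNFa replicate 2 of the wild-type cultures and without the arrays of high 18S signal, while a culture set block gave 6 calls and quantile normalization 9.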

How the results depend on the processing

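All 72 results for named genes kept their direction under every alternative that gives each gene a single value, and 32 of them stayed past the threshold in all of these. The alternative with every probe set on its own was not part of this check. The filter on flat genes and robust empirical Bayes moved no count or median. In what follows K stands for knockout-labelled and W for wild-type cultures, and counts are of genes called out of 36.

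Quantile normalization changed the TNFa count in W to 2 (median 0.286) and the TNFa median in K to 1.507. It gave 0 for LPS in W, 0 for TSG-6 in W (median -0.294) and 0 for TSG-6 with HA in W (median -0.268). It raised the genotype difference in the TNFa response to 9 (median 1.16), moved that in the TSG-6 response to a median of -0.447, and gave 1 for TNFa against LPS in W (median 0.183). For TSG-6 with HA against HA the medians became -1.074 in K and -0.471 in W. Cyclic loess gave 0 for LPS, 0 for TSG-6 and 0 for TSG-6 with HA in W, and 1 for TNFa against LPS in W. The mean of a gene's probe sets gave 5 for LPS in K. Every probe set on its own gave 0 for TSG-6 and 0 for TSG-6 with HA in W, with medians of 0.401 for TNFa in W and 0.289 for TNFa against LPS in W.

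Array weights gave 5 for LPS, 1 for HA and 20 for TSG-6 with HA in K, and 2 for LPS, 0 for TSG-6 with HA and 1 for TNFa against LPS in W. With only the groups compared, counts were 4 for TSG-6, 1 for HA, 8 for TSG-6 with HA and 3 for TSG-6 with HA against HA in K, and 2 for LPS, 2 for TSG-6, 2 for TSG-6 with HA and 0 for TNFa against LPS in W. Without the arrays of high 18S signal they were 3 for TSG-6 and 7 for TNFa against LPS in K, 5 for TNFa, 0 for TSG-6 with HA and 1 for TNFa against LPS in W (median 0.415), and 0 for the genotype difference in the TNFa response, and the median of TSG-6 with HA against HA in W was -0.711. The culture set as a block gave 6 for LPS in K, 2 for LPS, 1 for HA and 4 for TNFa against LPS in W, 6 for the genotype difference in the TNFa response and 1 for that in the response to TSG-6 with HA. For these changes the cause was not tested, beyond the smaller number of arrays in the smaller fits.

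The replicate block gave 11 for LPS and 10 for HA in K, 2 for LPS, 2 for TSG-6, 2 for TSG-6 with HA and 5 for TNFa against LPS in W, 10 for the genotype difference in the TNFa response and 1 for that in the response to TSG-6 with HA. The labels give the numbers no shared source. Same-numbered treated arrays lie in the same culture set, but untreated replicates 3 and 4 in K and 2 in W lie in the other set than the treated arrays of that number. The deviations of same-numbered arrays correlated between -0.262 and 0.716 in K, over 0.1 in 34 of 55 pairs, and between -0.652 and 0.686 in W, over 0.1 in 25 of 30.

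Leaving out 1 array at a time gave counts of 1 to 6 for LPS, 3 to 13 for TSG-6, 1 to 2 for HA, 9 to 21 for TSG-6 with HA and 10 to 19 for TSG-6 with HA against HA in K. In W they were 3 to 9 for TNFa (median 0.425 to 0.599), 0 to 1 for LPS, 0 to 1 for TSG-6, 0 to 1 for TSG-6 with HA (median -0.447 to -0.283) and 1 for TNFa against LPS throughout (median 0.333 to 0.411). They were 0 to 3 for the genotype difference in the TNFa response and 0 to 1 for that in the response to TSG-6 with HA. Where 1 treated array was left in W, it was assumed to vary like the other groups.

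The wild-type groups of 2 arrays, the unknown link between cultures and animals, the centred values and the differing cell markers limit every comparison with the wild-type cultures.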
